A study of Mus musculus with 6 samples.

Results

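Neural and muscle microRNA genes were examined in RNA of the left cochlea of noise-exposed mice. The 4 genes are Mir124a-1hg, Mir124-2hg and Mir9-3hg, whose transcripts carry neural microRNAs, and Mir133a-2, which encodes a muscle microRNA. They were chosen by symbol from the list of genes that the study called down-regulated after delivery of mesenchymal stromal cells (MSCs), and are 4 of the 41096 genes in the deposited table. No other symbol of the form Mir followed by a number stands in that list, and 0 stand in the list of up-regulated genes. The values that chose the genes are from the same 6 libraries, so their differences between the groups are given as a description, with no test.

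The mice were C57BL/6 (spelled C56Bl/6 in the labels), female and 4 weeks old, and all of them were exposed to a 16 kHz sound on the left ear. Specimens 6, 8 and 10 form the sound trauma group. Controls were injected with artificial perilymph in the study's methods, whereas the labels describe noise alone. The MSC treated group (specimens 13, 18 and 20) received human MSCs, derived from Wharton's jelly of the umbilical cord and injected into the posterior semicircular canal, so that n = 3 in each group. The labels place RNA extraction 2 days after treatment, and the study's methods give a longer interval and more animals in each group.

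A microRNA is cut from a hairpin within a longer primary transcript, and a host gene is the gene whose transcript holds that hairpin. The mature microRNA pairs through its seed, bases 2 to 8, with messenger RNAs and lowers their translation or stability. In neurons, miR-124 and miR-9 hold down genes of progenitors and of non-neuronal cells, among them the splicing regulator Ptbp1 and subunits of chromatin complexes, and the repressor REST keeps neuronal microRNA genes silent outside neurons. In skeletal and heart muscle, miR-133a is made from the same primary transcripts as miR-1 under control of SRF, MEF2 and the myogenic factors. The libraries measured longer RNA, so values refer to host transcripts or to the primary transcript across a hairpin, and mature microRNAs were not measured.

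Mature sequences of miR-9 are shown since Mir9-3hg had the largest ratio of specimen 8 to the MSC treated mean among the neural host genes and since its product is shared with other loci. Of the microRNAs of the 4 genes, 1 was matched in the RefSeq microRNA table used here (GRCm38.p6), which is not a complete list. The seed is in capitals in the mature sequences.
miR-9-5p: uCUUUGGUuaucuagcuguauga
miR-9-3p: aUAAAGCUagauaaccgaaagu
Both are encoded at Mir9-3 (chr7:79505264-79505353, plus strand), Mir9-1 (chr3:88215598-88215686, plus strand) and Mir9-2 (chr13:83738814-83738885, plus strand). In the 3 hairpins below the mature arms are in capitals, and the loop and flanks in lower case.
Mir9-1: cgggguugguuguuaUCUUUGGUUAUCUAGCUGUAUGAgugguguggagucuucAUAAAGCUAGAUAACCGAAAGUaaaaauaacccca
Mir9-2: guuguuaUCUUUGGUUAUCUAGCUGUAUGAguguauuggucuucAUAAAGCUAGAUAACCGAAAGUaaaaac
Mir9-3: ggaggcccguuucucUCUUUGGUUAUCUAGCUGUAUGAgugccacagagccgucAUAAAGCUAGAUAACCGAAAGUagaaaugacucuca
The arms are identical and the loops and flanks differ, so a mature miR-9 cannot be assigned to 1 locus, while the host transcript can. Among the entries of that table no other mature name carries either seed.

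In the GENCODE M21 annotation of GRCm38, the genes also differ in where the hairpin lies. The hairpin of Mir9-3 lies in an intron in 4 of the 7 transcripts of Mir9-3hg and in no exon. The hairpin Mir124a-1 lies wholly in an exon in 1 of 4 transcripts of Mir124a-1hg. In Mir124-2hg, the hairpin Mir124a-2 lies in an intron in 5 of 7 transcripts and overlaps an exon in part in 1. Mir133a-2 is annotated as its hairpin alone, 104 bases long, and RefSeq places it within the long noncoding RNA Mir1a-1hg, together with Mir1a-1. The authors aligned reads to the C57BL/6NJ genome, another build, so these positions describe the reference annotation and not the counted intervals. The strand setting of the counting is not given in the sources used here, and in GENCODE the snRNA gene Gm23441 lies on the other strand within Mir124-2hg. On the same strand, A330074H02Rik, 2900037B21Rik and Gm37608 overlap Mir9-3hg, and Mir3078 overlaps Mir124a-1hg. How reads in such overlaps were assigned is not known here, whatever the strand setting.

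Each library held between 9170390 and 11030863 reads assigned to genes. Values are scaled counts, which are reads multiplied by 1 factor per library, and 1 read was worth 0.893 to 1.16 scaled counts. The detection floor was set at 3 reads in a library, and it covers counting error only. The libraries of the sound trauma group stood apart from each other in marker genes of other tissues. Specimen 8 had the highest sum for cerebellar neuron and neuronal markers, and specimen 6 the highest for skeletal muscle and choroid plexus markers. The hair cell genes Otof, Pou4f3 and Lhfpl5, the 3 of 9 hair cell markers with a name, were detected in every library and had log2 fold changes around a median of 0.59, or 0.37 without specimen 8. Sox10, the 1 of 5 peripheral glia markers with a name, had a log2 fold change of 0.29, or 0.13 without specimen 8. All of these markers have names only because the study listed them as changed in these animals.

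Across all genes, 0 of 15970 tested genes had an adjusted p under 0.05 in limma, in either direction, which is 0% of the genes tested, and 0 of the 4 microRNA genes did. At an unadjusted p under 0.05 limma had 107 lower genes (0.67%) and 269 higher genes (1.68%) in MSC treated animals, and with scaling by total counts it had 61 and 295. The quasi-likelihood test of edgeR, DESeq2 and limma-voom on the recovered reads also made 0 calls after adjustment, and at an unadjusted p under 0.05 they had 266 lower and 259 higher genes, 550 and 249, and 98 and 252 in that order. Without specimen 10, limma had 1 gene past the adjusted threshold, and before adjustment 1083 genes were lower and 1395 higher at a p under 0.05. All 4 microRNA genes passed the filter on low counts. The fitted value was lower in MSC treated animals for 49.8% of the genes tested, and the log2 fold change was -1 or below for 2.81%, as it was for Mir124a-1hg and Mir9-3hg, from which nothing is read since the contrast chose them. Their sound trauma and MSC treated values overlapped in 4 of 4 genes, where the groups did not overlap, with MSC treated lower, for 2.92% of the genes tested.

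**Figure D1:**
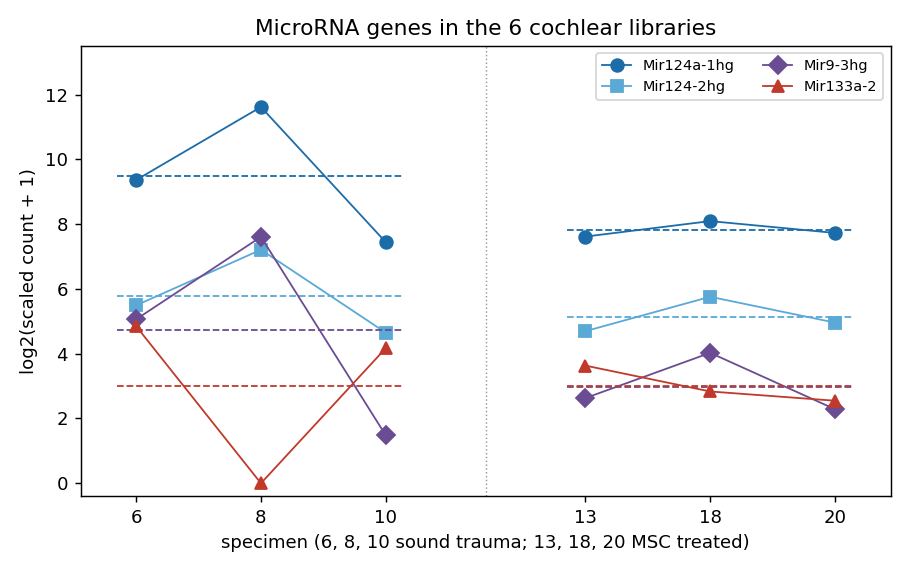
Values of the 4 microRNA genes by library. The vertical axis is log2(scaled count + 1), each point is 1 library, dashed lines are group means of the log2 values, and solid lines only link the points of 1 gene. The 3 neural host genes peak in specimen 8, where Mir133a-2 is at 0, and the MSC treated libraries lie close together for Mir124a-1hg (195 to 272 scaled counts).

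Mir124a-1hg (MGP_C57BL6NJ_G0005686), also known as the retinal noncoding RNA Rncr3, gave the most reads of the 4 genes, 4713 over the 6 libraries. Its scaled counts were 657 in specimen 6, 3137 in specimen 8 and 173 in specimen 10 of the sound trauma group, against 195, 272 and 211 in MSC treated specimens 13, 18 and 20. Specimen 8 was 4.77-fold above the next library and held 79.1% of the summed sound trauma value, and specimen 10 was the lowest of all 6. The MSC treated libraries spanned 1.39-fold, with 226 ± 40.4 (SD, n = 3), and the sound trauma libraries had 1322 ± 1590 (SD, n = 3). The log2 fold change of MSC treated against sound trauma was -1.66 with a standard error of 0.96, and it was -0.59 without specimen 8 and -2.68 without specimen 10. Without both specimens 6 and 8, an alternative chosen after the data were seen, it was 0.37, which follows from specimen 10, the 1 sound trauma library left, having the lowest value.

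Mir124-2hg (MGP_C57BL6NJ_G0006257) is the host of the second miR-124 hairpin. It had 44, 147 and 24.1 scaled counts in specimens 6, 8 and 10, compared with 24.9, 53.1 and 30.1 in specimens 13, 18 and 20. MSC treated specimen 18 lay above sound trauma specimens 6 and 10, and specimen 8 was 2.77-fold above specimen 18. The log2 fold change was -0.65 with a standard error of 0.68, which is smaller than its error, and it was 0.07 without specimen 8, -1.21 without specimen 10 and 0.49 without specimens 6 and 8, with specimen 10 left alone. Counts were between 24 and 154 reads per library. In specimen 10 the share was 2.45 reads per 1000000 reads on genes with a 95% Wilson interval of 1.68 to 3.56, which overlaps that of specimen 13, 1.62 to 3.6, so that these libraries could not be told apart at this depth.

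Both genes carry a miR-124 hairpin, and their counts did not keep 1 ratio. The ratio of Mir124a-1hg to Mir124-2hg scaled counts was 21.3 in specimen 8 and 14.9 in specimen 6, compared with 7.19, 7.83, 5.12 and 7 in specimens 10, 13, 18 and 20. The ratio compares libraries, not the levels of the genes, since the genes differ in length.

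Mir9-3hg (MGP_C57BL6NJ_G0007367) had scaled counts of 32.4, 194 and 1.79 in specimens 6, 8 and 10, then of 5.19, 15.3 and 3.88 in specimens 13, 18 and 20. Specimen 8 was 23.9-fold above the mean of the MSC treated group. Specimen 10, a sound trauma library, was the lowest of all, at 2 reads, within the detection floor. The remaining low values rest on 5 reads in specimen 13 and 4 in specimen 20. The log2 fold change was -1.73 with a standard error of 1.49. It was -0.29 without specimen 8, and -3.35 without specimen 10.

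The promoter of Mir9-3hg is shown since it is the only one of the 4 genes matched in the RefSeq promoter table used here (250 bases before to 50 after the transcript start). The table gives a pair of starts for this gene. The first lies on the plus strand of GRCm38.p6 at chr7:79499776-79500075, and in capitals are a cyclic AMP response element (TGACGTCA), an E-box (CANNTG) and GC boxes (GGGCGG), each searched on both strands.
Mir9-3hg promoter: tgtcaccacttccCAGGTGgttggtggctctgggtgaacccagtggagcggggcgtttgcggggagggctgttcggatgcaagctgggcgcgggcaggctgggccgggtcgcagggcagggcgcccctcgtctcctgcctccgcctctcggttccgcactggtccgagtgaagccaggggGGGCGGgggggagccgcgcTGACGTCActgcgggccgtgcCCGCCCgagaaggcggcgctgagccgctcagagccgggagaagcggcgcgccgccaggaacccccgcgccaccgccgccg
The marked runs do not touch each other. This promoter has 75.0% GC and 35 CG pairs, against medians of 52.7% and 7 over 32851 promoters of the same length. The cyclic AMP response element is present in 1.79% of all promoters, the E-box in 72.3% and the GC box in 35.7%. No match to the REST binding motif RE1, to the MEF2 motif or to the CArG box of SRF was found in it, and 0.0639%, 3.19% and 1.63% of all promoters hold these. At the second start (chr7:79515185-79515484, plus strand) the cyclic AMP response element had 0 matches. That start lies downstream of the Mir9-3 hairpin, so a transcript from it does not hold the hairpin. The counts of Mir9-3hg do not separate the starts. A match describes letters in this window, and binding was not measured.

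Mir133a-2 (MGP_C57BL6NJ_G0008812), the muscle microRNA gene, followed another order. Its scaled counts were 27.8, 0 and 17.0 in specimens 6, 8 and 10, then 11.4, 6.13 and 4.85 in specimens 13, 18 and 20. The values rest on 24, 0, 19, 11, 6 and 5 reads in that order. Both the highest value and the 0 were in sound trauma animals. Scaled counts were 14.9 ± 14.0 (SD, n = 3) in the sound trauma group and 7.47 ± 3.49 (SD, n = 3) in the MSC treated group. The 0 reads in specimen 8 allow a value of up to 2.87 scaled counts, and 0.0376% of the genes tested had 0 reads in that library. Wilson intervals were 1.66 to 3.67 reads per 1000000 in specimen 6 and 1.10 to 2.69 in specimen 10, which overlap. Specimen 6 lay above specimens 18 (0.300 to 1.43) and 20 (0.219 to 1.20) beyond counting error. The floor of 3 reads in specimen 8 comes to 0.299 reads per 1000000, which lies within the interval of specimen 20, so that these libraries could not be told apart at this depth.

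The size of the group difference of Mir133a-2 depended on how the 0 was treated. The ratio of the group means was -1 on the log2 scale. The fitted log2 fold change was 0.00 with a standard error of 1.27, and it was 0.97 with a pseudocount of 0.1 and -0.33 with a pseudocount of 10 in place of 1. It was -0.65 with the 0 at the detection floor, -1.5 without specimen 8, 0.92 without specimen 6, 0.58 without specimen 10 and -1.16 without specimens 6 and 8 together. A direction for this gene was therefore not shared by these settings.

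The promoter of Mir1a-1hg, the noncoding RNA that spans Mir133a-2, is shown since Mir133a-2 lies within it. It lies on the plus strand of GRCm38.p6 at chr2:180385354-180385653, with E-boxes (CANNTG), the motif of the myogenic factors, in capitals.
Mir1a-1hg promoter: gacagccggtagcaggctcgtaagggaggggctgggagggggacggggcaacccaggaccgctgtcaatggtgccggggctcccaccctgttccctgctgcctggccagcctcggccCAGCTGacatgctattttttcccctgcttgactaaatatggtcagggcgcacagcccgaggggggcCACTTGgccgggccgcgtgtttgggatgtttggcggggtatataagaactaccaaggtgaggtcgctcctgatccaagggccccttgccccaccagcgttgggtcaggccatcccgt
It holds 2 E-boxes, and 0 matches to the MEF2 motif, the CArG box, the TATA box (TATAAA) or RE1. The TATA box search counted the exact letters TATAAA only, and the window holds the near match TATATAAG. The 0 matches therefore do not show that this promoter lacks a TATA box. Mir1a-1hg has no symbol in the deposited lists, so its level was not analysed here.

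The comparison of the neural host genes with the muscle gene was made within each library. The mean log2 value of the 3 host genes minus that of Mir133a-2 was 1.79, 8.81 and 0.36 in specimens 6, 8 and 10, compared with 1.35, 3.13 and 2.44 in specimens 13, 18 and 20. The value in specimen 8 contains the 0 of Mir133a-2 and is set by the pseudocount, and with that gene at the detection floor it was at least 6.86. Specimen 8 was then still the highest and specimen 10 the lowest, both of them sound trauma animals. The mean log2 change of the host genes was 1.35 lower than that of Mir133a-2 over all libraries (difference -1.35, or -0.70 with the 0 at the detection floor, a setting chosen after the data were seen), and without specimen 8 the difference was 1.23, with the opposite sign. It was -2.28 without specimen 6, -3 without specimen 10 and -0.87 without specimen 13. In specimen 6, both kinds of gene lay above the MSC treated mean, by 1.55 for Mir124a-1hg, 0.36 for Mir124-2hg, 2.08 for Mir9-3hg and 1.84 for Mir133a-2 on the log2 scale. In specimen 8 the host genes lay above it by 3.80, 2.07 and 4.63, and the difference of Mir133a-2 was -1.05 or below, from the detection floor. In specimen 10 the differences were -0.37 for Mir124a-1hg, -0.49 for Mir124-2hg and 1.16 for Mir133a-2, and Mir9-3hg was within the detection floor.

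Patterns over the 6 libraries were compared by the root mean square difference of the log2 values after centring each gene on its mean. Among the host genes the difference was 0.72 between Mir124a-1hg and Mir124-2hg, 0.73 between Mir124a-1hg and Mir9-3hg, and 1.24 between Mir124-2hg and Mir9-3hg. Between Mir133a-2 and the host genes it was 2.76, 2.31 and 3.25 in the order of Mir124a-1hg, Mir124-2hg and Mir9-3hg, and with the 0 of Mir133a-2 at the detection floor it was 2.06, 1.66 and 2.59. The highest value of all 3 host genes was in specimen 8, which holds for 28.2% of the genes tested, and that of Mir133a-2 in specimen 6, which holds for 21.1%. The shares were 14.6%, 10.6%, 11.4% and 14.1% for specimens 10, 13, 18 and 20. Specimen 8 was the lowest library for Mir133a-2 and for 21.2% of the genes tested.

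Genes most like Mir124a-1hg among those with a name were Nell2, a secreted neuronal glycoprotein (0.10), Megf11, an adhesion protein of retinal neurons (0.12), and Frrs1l, a component of AMPA receptor complexes (0.13). Nell2 had 246, 1207 and 74.2 scaled counts in specimens 6, 8 and 10, then 85.2, 112 and 77.7 in specimens 13, 18 and 20. For Mir124-2hg the nearest were 2900011O08Rik (0.13), Osbp2 (0.15) and 1700034H15Rik (0.16). Near to Mir9-3hg were Grin2b, a subunit of NMDA receptors (0.31), and Slc12a5, the neuronal potassium chloride cotransporter KCC2 (0.35). Scaled counts of Grin2b were 68.4, 320 and 2.68 in sound trauma and 8.31, 16.3 and 7.77 in MSC treated libraries. As a gene chosen for its likeness to Mir9-3hg, it shares the order of the libraries by that choice.

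For Mir133a-2 the nearest genes were Myl3, a myosin light chain of slow and heart muscle (0.31), Odf3l2 (0.33), and Xirp2, an actin-binding protein of striated muscle (0.46). This choice rests on the 0 in specimen 8: with it at the detection floor, a setting chosen after the data were seen, the nearest were Mss51 (0.27), Foxo6 (0.33) and Popdc2 (0.35), and Myl3, Odf3l2 and Xirp2 had ranks 274, 254 and 146 (0.75, 0.73 and 0.66). Myl3 had 261, 6.69 and 94.7 scaled counts in specimens 6, 8 and 10, then 67.5, 60.3 and 47.6 in specimens 13, 18 and 20. It was chosen for its likeness to Mir133a-2 among 3524 named genes, so nothing is read from a shared order of the libraries. Xirp2 had 17750, 754 and 5700 against 9204, 2860 and 3443.

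**Figure D2:**
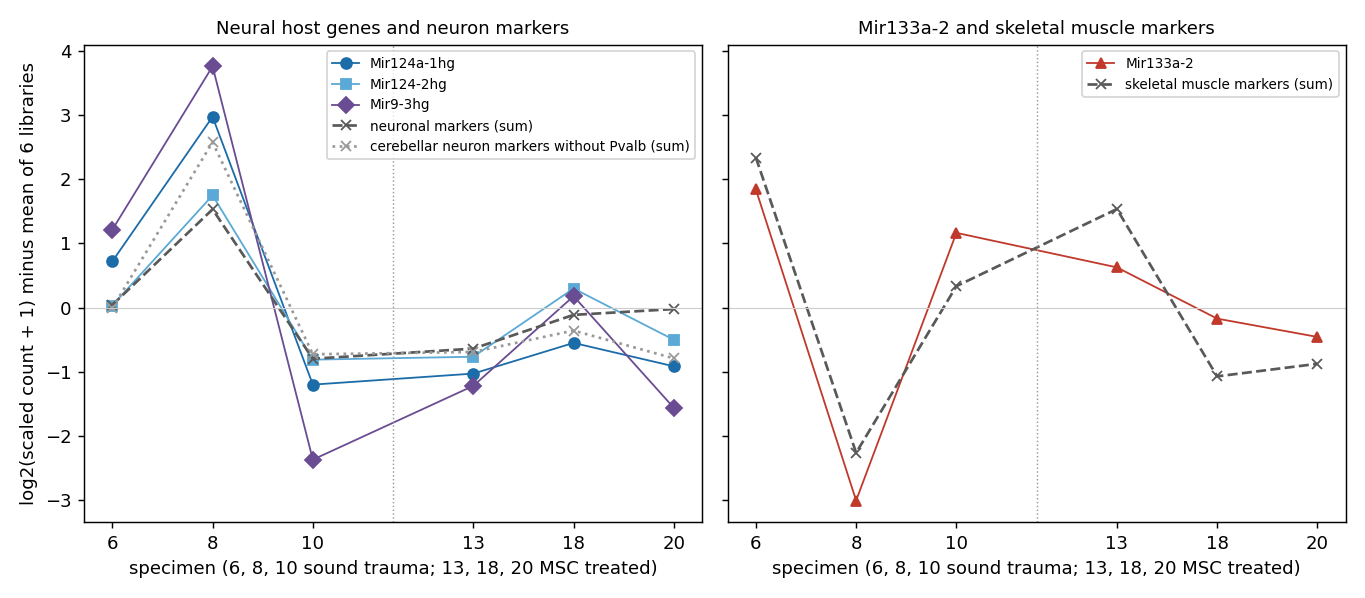
Members and marker sums after centring on the mean of the 6 libraries. The vertical axis is log2(scaled count + 1) minus that mean. On the left are the neural host genes, the summed neuronal markers and the summed cerebellar markers without Pvalb. On the right is Mir133a-2 with the summed skeletal muscle markers. Solid and dashed lines only link the points of 1 gene or list. Specimen 8 is the high point on the left and the low point on the right.

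The summed neuronal markers were highest in specimen 8, as were the host genes, and the summed skeletal muscle markers in specimen 6, as was Mir133a-2. The order of the other libraries differed. Among the MSC treated libraries the neuronal sum was highest in specimen 20 and each host gene in specimen 18. The muscle sum was higher in specimen 13 than in specimen 10, and Mir133a-2 was lower. Of 17 neuronal markers, 10 have a name, and 9 of these were highest in specimen 8, as were 28.2% of all genes tested. The 10 are named only because the study listed them as changed, 9 of them as down-regulated, which selects for high sound trauma values. Nothing is therefore read from how many peak in a sound trauma library. Their summed scaled counts were 12928, 36337 and 7236 in specimens 6, 8 and 10, compared with 8072, 11620 and 12373 in specimens 13, 18 and 20. Among 12 cerebellar neuron markers, 11 have a name and 10 of these were highest in specimen 8, the exception being Pvalb, which fast muscle also expresses. All 11 are in the down list, so the same limit holds for them. With Pvalb the sums were 34661, 40795 and 13466 in specimens 6, 8 and 10, then 23465, 9187 and 7283 in specimens 13, 18 and 20. Without Pvalb, a choice made after the values were seen, the sums were 6280, 37757 and 3820 in the sound trauma libraries. They were 3654 to 4936 in the MSC treated libraries.

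The 24 named skeletal muscle markers of 29 were highest in specimen 6 in 22 cases and lowest in specimen 8 in 23. Of all genes tested, 21.1% were highest in specimen 6 and 21.2% lowest in specimen 8. All 24 are named because the study listed them as down-regulated, so nothing is read from how many peak in a sound trauma library. Their sums were 1101667, 45441 and 274691 scaled counts in specimens 6, 8 and 10, then 631579, 103694 and 118776 in specimens 13, 18 and 20. They took 9.77% of all reads in specimen 6 and 0.475% in specimen 8. Acta1, skeletal muscle actin, had 197744 scaled counts in specimen 6 and 4805 in specimen 8. The median log2 fold change of the list was -0.21, which was -1.42 without specimen 8 and 0.80 without specimen 6, beside -1.5 and 0.92 for Mir133a-2. The part of these tissues in the values of the microRNA genes was not tested, and in bulk RNA fewer cells of a type and less RNA per cell cannot be told apart.

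Reads of each microRNA gene were then set against the reads of its marker list in the same library. Mir124-2hg had 3395, 4036 and 3323 reads per 1000000 reads of gene and neuronal markers in specimens 6, 8 and 10, then 3079, 4549 and 2426 in specimens 13, 18 and 20. The interval in specimen 8 (3447 to 4723) overlapped those of specimens 6 (2475 to 4656), 10 (2285 to 4830), 13 (2070 to 4578) and 18 (3471 to 5961), and lay just above that of specimen 20 (1710 to 3442). The lowest and highest libraries for this ratio, specimens 20 and 18, were both MSC treated.

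Mir124a-1hg had 48371 and 79466 reads per 1000000 in specimens 6 and 8, compared with 23393, 23624, 22844 and 16740 in specimens 10, 13, 18 and 20, with intervals of 44632 to 52405 and 76896 to 82114 in the first pair and none above 27198 in the others. Mir9-3hg had 2504 and 5313 reads per 1000000 in specimens 6 and 8, compared with 247, 643, 1317 and 314 in specimens 10, 13, 18 and 20. For Mir9-3hg the interval in specimen 8 (4632 to 6093) lay above all the others, and that in specimen 6 (1733 to 3616) overlapped that in specimen 18 (798 to 2171). Mir133a-2 had 25.2, 61.8, 18.1, 59.1 and 40.9 reads per 1000000 reads of gene and muscle markers in specimens 6, 10, 13, 18 and 20. In specimen 8 the 0 reads allow up to 63.1 reads per 1000000, above all of these values, so a lower ratio in that library was not detectable at this depth. Specimen 10 (39.6 to 96.5) lay above specimens 6 (17.0 to 37.6) and 13 (10.1 to 32.4) beyond counting error.

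**Figure D3:**
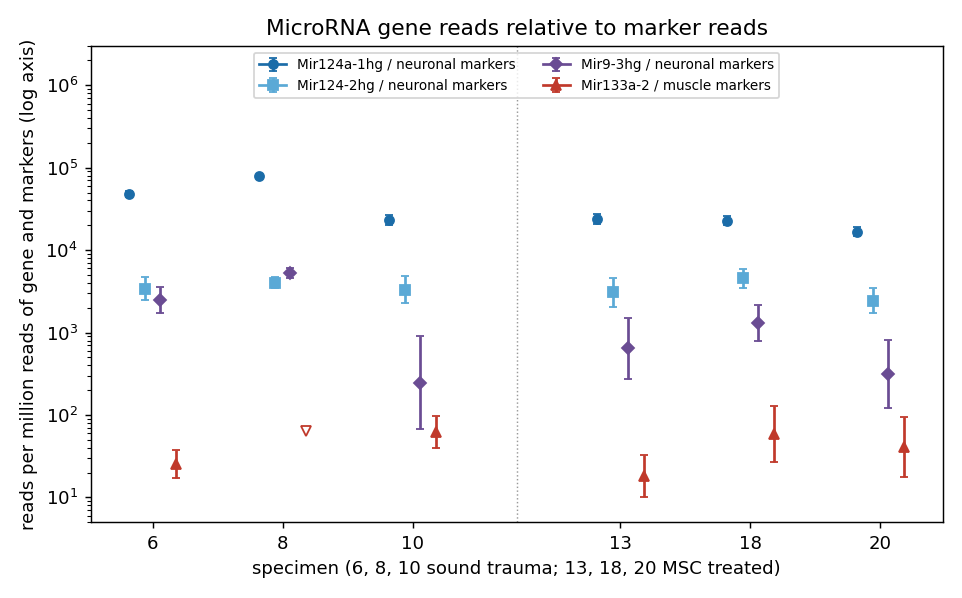
Level of each microRNA gene, in reads per 1000000 reads of the gene and its marker list, on a log axis, by library. Bars are 95% Wilson intervals, which cover counting error only, and the open triangle is the limit that 0 reads allow. Mir124-2hg lies between 2426 and 4549 in all libraries, and Mir124a-1hg and Mir9-3hg are highest in specimens 6 and 8.

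On a scale per length, the authors' mean FPKM put the genes in another order than their reads. In sound trauma the authors' means were 27.9 for Mir124a-1hg, 13.4 for Mir133a-2, 1.78 for Mir9-3hg and 1.21 for Mir124-2hg. In MSC treated animals they were 7.29 for Mir133a-2, 4.85 for Mir124a-1hg, 0.627 for Mir124-2hg and 0.195 for Mir9-3hg. Mir133a-2 thus stood above Mir124a-1hg in the MSC treated means, although it had 5 to 11 reads per library there and Mir124a-1hg 188 to 266. These are means with no spread, and a gene of about the length of a hairpin has a high value per length from few reads.

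Genes that act with these microRNAs were taken from lists, and since names exist only for genes in the authors' lists, their directions are not independent evidence. Of 199 genes on 15 lists, 94 have a name and 91 were tested. None of the 91 had an adjusted p under 0.05 in limma, edgeR, DESeq2 or limma-voom, and at an unadjusted p under 0.05 there were 2 in limma (2.2%), 10 in edgeR (11%), 26 in DESeq2 (28.6%) and 1 in limma-voom (1.1%). The shares of all genes tested were 2.35%, 3.29%, 5% and 2.19% in that order, and nothing is read from the difference since the authors' lists were drawn from the same contrast. The median log2 fold change over all genes tested was 0.001. The down list holds 2741 genes and the up list 1137, so that most named genes are in the down list whatever their function, and 49.8% of all genes tested were fitted lower.

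Of 21 genes that make or use microRNAs, 3 have a name and all 3 are in the down list. Drosha, the nuclease that cuts the hairpin from the primary transcript, had 1187, 1039 and 947 scaled counts in specimens 6, 8 and 10, compared with 908, 780 and 849 in specimens 13, 18 and 20. Its MSC treated values all lay below the sound trauma values, as they did for 2.92% of the genes tested. The log2 fold change was -0.32 (standard error 0.13), and it was -0.33 without specimen 8 and -0.23 without specimen 6. Tnrc6c, a scaffold of the silencing complex, and Ddx5, a helicase of the Drosha complex, had log2 fold changes of -0.17 and -0.06 with standard errors of 0.15 and 0.17, and of -0.04 and 0.03 without specimen 8. Dicer1 and the Argonaute genes have no symbol in the lists and were not analysed here by name.

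REST, the repressor of neuronal genes, and 2 others of 12 genes of its complex have a name, and all 3 are in the up list. Rest had 243, 323 and 426 scaled counts in specimens 6, 8 and 10, then 402, 466 and 417 in specimens 13, 18 and 20. Its log2 fold change was 0.41 (standard error 0.22), and 0.20 without specimen 6. It was lowest in specimens 6 and 8, the libraries with the highest Mir124a-1hg, and sound trauma specimen 10 lay within the MSC treated range. Rcor1, a corepressor of REST, had 98.5, 141 and 182 against 209, 197 and 187, with no overlap between the groups, where 4.25% of the genes tested were higher with no overlap. Of 16 neuronal genes that REST represses, 11 have a name, and all 11 are in the down list. All 11 were fitted lower after MSC delivery, beside 49.8% of all genes tested. Nothing is read from this, since the down list that names them was drawn from the same contrast. Their median log2 fold change was -0.91 and, without specimen 8, -0.32. Snap25, of the synaptic fusion machinery, had 4628, 12397 and 3143 scaled counts against 3130, 4721 and 4019.

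Genes commonly given as targets were few among the named ones. For miR-124, 2 of 21 have a name, Ctdspl, a phosphatase that works with REST, and Rest itself. Ctdspl had 509, 504 and 658 scaled counts in specimens 6, 8 and 10, then 621, 852 and 661 in specimens 13, 18 and 20. For miR-9, 5 of 18 have a name, 4 in the up list and 1 in the down list, and the median log2 fold change was 0.41. Ccng1, cyclin G1, has the highest mean of the 5 and is the 1 in the down list. It had 4289, 701 and 1363 scaled counts against 2638, 893 and 1104, highest in specimen 6 and lowest in specimen 8. The log2 fold change of Ccng1 was -0.22, or -0.81 without specimen 8 and 0.49 without specimen 6. Foxp1, a forkhead transcription factor, had 693, 858 and 1141 scaled counts against 954, 1087 and 1192. Onecut2, another transcription factor, had a log2 fold change of 0.71 with a standard error of 0.34, from 21.0 to 31.3 scaled counts in sound trauma and 28.1 to 53.4 in MSC treated libraries.

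For miR-133a, 4 of 18 have a name, 3 in the up list and 1 in the down list. Nfatc4, a calcium-dependent transcription factor, had 225, 175 and 267 scaled counts against 430, 280 and 255, and Snai1, a repressor of epithelial genes, had 166, 121 and 175 against 261, 200 and 149. Pitx3 had 131, 6.69 and 39.3 scaled counts in specimens 6, 8 and 10, compared with 61.3, 14.3 and 16.5 in specimens 13, 18 and 20, so that it was highest in specimen 6 and lowest in specimen 8, as was Mir133a-2.

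In neurons miR-9 and miR-124 act beside a set of neuron-specific chromatin and transcription factors, of which 7 of 8 have a name. All 7 are in the down list, 6 were tested, and 5 of the 7 were highest in specimen 8, as were 28.2% of all genes tested. Actl6b, the neuronal actin-like subunit of the BAF complex, had 121, 301 and 22.3 scaled counts in specimens 6, 8 and 10, then 29.1, 40.9 and 76.7 in specimens 13, 18 and 20. Myt1l, a neuronal zinc finger repressor, had 256, 678 and 62.5 against 76.9, 107 and 169. For both, sound trauma specimen 10 was the lowest library. The median log2 fold change of the 6 genes was -0.80, and it was -0.20 without specimen 8. Of 9 muscle transcription factors 1 has a name, Mef2d, whose log2 fold change was -0.23 (standard error 0.20), and -0.12 without specimen 6.

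**Figure D4:**
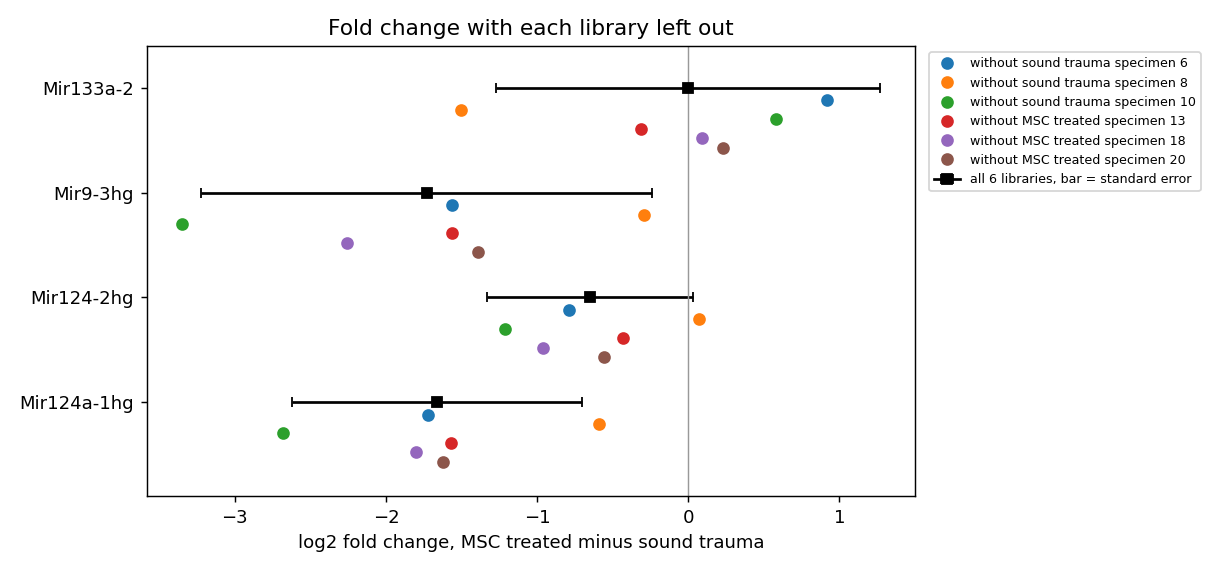
Log2 fold change of each microRNA gene with all libraries and with each library left out. Squares are the fit of all 6 libraries with its standard error, and coloured points leave out 1 library each. Without specimen 8 the values of Mir124a-1hg, Mir124-2hg and Mir9-3hg were -0.59, 0.07 and -0.29, and that of Mir133a-2 was -1.5.

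The neighbours of the 4 genes in RefSeq gene order, 3 on each side, were looked up among the named genes. None of them has a symbol in the deposited lists, so no neighbour was compared.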

How the data were processed

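The authors sequenced cochlear RNA and, with the software package of their methods, trimmed reads and aligned them to the C57BL/6NJ genome. The counting tool is not given in the sources used here. The deposited signal is the read count per gene multiplied by 1 factor per library. All values (100%) were whole multiples of 1 step, within 0.001 of a read up to 1000 reads and in proportion above, and reads were recovered from them. FPKM values are the authors' group means and entered no test. FDR and fold change columns of the deposited lists were not used.

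Genes that passed filterByExpr (15970) were fitted with limma-trend on log2(scaled count + 1), with Benjamini-Hochberg adjustment. The labels name specimens and no litters or batches, so p-values measure the spread between these samples. Recovered reads were fitted with edgeR's quasi-likelihood test (0 calls), DESeq2 and limma-voom. Other alternatives were scalings, filters, pseudocounts of 0.1 and 10, a robust fit and leaving out libraries. The fits were tested on simulated data. Count tests used edgeR 4.0.16 and DESeq2 1.42.0, and limma was version 3.58.1, run in R 4.3.3. Tables and Wilson intervals were made with scipy 1.17.1 and pandas 2.3.3 under Python 3.11.15.

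Genes named are the 4 microRNA genes, the 3 most like each, some of the up to 5 listed genes of highest mean per list, and named neighbours. Other listed genes enter by counts and sums, and 1 gene under this rule is not reported here. Which of them are named, listed genes outside that rule, and the list without Pvalb were chosen after their values were seen. Members and lists were chosen with earlier results of these data known. Symbols came from the deposited lists.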

Additional observations from a re-analysis of the deposited data

How the results depend on the processing

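No paired analysis was possible because the groups share no specimen number. The count of genes past an adjusted p of 0.05 was 0 in limma and 0 under all 11 planned changes of test, scaling, filter or pseudocount. It was between 0 and 1 when 1 library was left out, with 1 without sound trauma specimen 10. Leaving out 1 library gave log2 fold changes of -2.68 to -0.59 for Mir124a-1hg, -1.21 to 0.07 for Mir124-2hg, -3.35 to -0.29 for Mir9-3hg and -1.5 to 0.92 for Mir133a-2, and -3 to 1.23 for the difference between the host genes and Mir133a-2. The other planned settings gave -2.56 to -1.59, -1 to -0.57, -3.23 to -1.42, -1.02 to 0.97 and -2.32 to -0.88 in that order. Without specimens 6 and 8, an alternative chosen after the data were seen in which specimen 10 alone stands for the sound trauma group and is assumed to vary like the MSC treated libraries, the values were 0.37, 0.49 and 1.5 for the 3 host genes, -1.16 for Mir133a-2 and 1.95 for the difference. The value of Mir9-3hg then rests on 2 reads in specimen 10. With the 0 reads of Mir133a-2 at the detection floor, also chosen after the data were seen, Mir133a-2 had -0.65 and the difference was -0.70. The cause was not tested. With at least 10 reads in every library, Mir9-3hg and Mir133a-2 were filtered out. Scaling by total counts moved the median log2 fold change of all genes most, from 0.001 to 0.073.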

Other observations

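A further host gene, Mirg, stands in the down list under a symbol without a number and was noticed after the values were seen. It carries many microRNAs of an imprinted cluster. Scaled counts of Mirg were 206, 207 and 70.6 after sound trauma alone (specimens 6, 8 and 10), and 75.8, 53.1 and 78.6 with MSCs (specimens 13, 18 and 20). Specimens 6 and 8 were alike for Mirg, whereas specimen 8 was far above specimen 6 for Mir124a-1hg, Mir124-2hg and Mir9-3hg. The log2 fold change of Mirg was -1.07 (standard error 0.46), and it was -0.82 without specimen 8 and -0.82 without specimen 6.

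Choroid plexus and central glia markers also differed among the sound trauma libraries. The 5 named choroid plexus markers of 9 summed to 8145, 5508 and 352 scaled counts in specimens 6, 8 and 10, and to between 298 and 409 in MSC treated libraries. The 11 central glia markers, all of them named, summed to 29437, 46002 and 12847 against 11138, 27435 and 14127 in specimens 13, 18 and 20, and specimen 18 was also the highest MSC treated library for Mir124a-1hg, Mir124-2hg and Mir9-3hg. Their part in the values of the microRNA genes was not tested.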
